A study of Rattus norvegicus with 12 samples.

Results

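The 10 genes described here encode the enzymes that turn membrane arachidonic acid into prostaglandins, thromboxane and leukotrienes. They were picked by symbol from the 32623 genes of the deposited tables, each symbol had a single row, and 9 of the 10 had enough counts to be tested. The cells were labelled as primary rat hepatic stellate cells and came from rats with cirrhosis induced by chronic carbon tetrachloride inhalation. For 24 h they shared medium, across a porous Transwell insert, with 15000 viable human cells or with vehicle in their place; the human cells were amniotic epithelial (hAEC) or amniotic mesenchymal stromal (hAMSC). Each group had 4 libraries of polyadenylated RNA: hAEC 3, 4, 11 and 12, hAMSC 7, 8, 15 and 16, and vehicle 17, 18, 19 and 20. The labels give no strain, sex or age, and do not say whether a group's libraries stem from different rats or cultures.

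Arachidonic acid is cut from phospholipids by cytosolic phospholipase A2 (Pla2g4a). Cyclooxygenases (the constitutive Ptgs1 and the inducible Ptgs2) convert it to prostaglandin H2, from which terminal synthases make prostaglandin E2 (Ptges), prostaglandin D2 (Hpgds) or thromboxane A2 (Tbxas1). In the other branch 5-lipoxygenase (Alox5), with its membrane partner FLAP (Alox5ap), makes leukotriene A4, which Lta4h hydrolyses to the neutrophil attractant leukotriene B4 and Ltc4s conjugates to glutathione to give the cysteinyl leukotrienes. Liver macrophages are a known source of these mediators, and prostanoids and cysteinyl leukotrienes act on the tone of the sinusoid.

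Levels are given as CPM (counts scaled to the library's size, here after TMM scaling), which are not corrected for transcript length, so they are compared between libraries and not between genes. The lists of cell type markers are the exception. There levels are set side by side or summed over genes, only as a rough guide. Total counts ran from 27382724 to 34922211 per library. The libraries fell into 2 sets that the labels do not name and that cross the groups: set A held hAEC 11 and 12, hAMSC 15 and 16 and vehicle 19 and 20, and set B held hAEC 3 and 4, hAMSC 7 and 8 and vehicle 17 and 18. The first principal component of the 2000 most variable genes, taken without the genes of the pathway, held 65.5% of the variance and parted the sets. Because the sets were read from these libraries, differences between them are described and not tested. Macrophage markers were high in all libraries (13 of 14 markers in the files, median 899 CPM), and the median of the 11 stellate and myofibroblast markers was 1.88 CPM. This goes against the label, and the cells are therefore called by their label only. In bulk RNA, fewer cells of a type and less RNA per cell cannot be told apart.

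The inducible pair Ptgs2 and Ptges was higher in set B, while Ptgs1 was higher in set A, and the promoters of these 3 genes are shown because the results turn on this contrast. The sequences are the 250 bases before the transcription start in RefSeq (build GRCr8), which holds an entry for 8 of the 10 genes, and Hpgds and Alox5ap have none. Capitals mark matches to 7 motifs searched on both strands. For stress and hormone signals these were AP-1, spelled TGANTCA, NF-kB, and the response element for cyclic AMP, spelled TGACGTCA. For factors known from macrophages they were C/EBP, spelled TTGCNNAA, and PU.1, the myeloid master regulator, spelled GAGGAAG. The E-box was spelled CACGTG, and the core promoter element TATA was searched as TATAAA.
Ptgs2, chr13:64713813-64714062, plus strand: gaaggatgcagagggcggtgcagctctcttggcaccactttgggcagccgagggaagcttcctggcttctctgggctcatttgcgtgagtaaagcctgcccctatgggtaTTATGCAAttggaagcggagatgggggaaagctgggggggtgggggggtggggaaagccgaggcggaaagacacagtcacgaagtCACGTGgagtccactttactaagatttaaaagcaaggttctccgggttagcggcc
Ptges, chr3:34586988-34587237, minus strand: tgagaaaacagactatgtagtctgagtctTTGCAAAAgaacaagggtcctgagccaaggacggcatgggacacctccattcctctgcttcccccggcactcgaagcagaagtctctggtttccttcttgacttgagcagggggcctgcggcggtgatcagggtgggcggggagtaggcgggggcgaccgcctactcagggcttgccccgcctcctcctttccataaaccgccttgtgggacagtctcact
Ptgs1, chr3:39981169-39981418, plus strand: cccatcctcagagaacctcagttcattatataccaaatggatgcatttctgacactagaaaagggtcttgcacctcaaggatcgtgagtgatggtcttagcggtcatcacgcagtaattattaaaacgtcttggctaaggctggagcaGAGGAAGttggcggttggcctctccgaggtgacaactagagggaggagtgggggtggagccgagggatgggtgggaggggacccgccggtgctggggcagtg
The Ptgs2 and Ptges windows each held 1 C/EBP match, starting 140 and 221 bases before the start, as did 9.22% of the 33469 promoters of that length. The Ptgs2 window also held an E-box 55 bases before the start (5.59% of promoters), and the Ptgs1 window a PU.1 match 102 bases before it (10.2%). All 8 windows were searched, and that of Tbxas1 also held a PU.1 match, 57 bases before the start. It further held an AP-1 match at 102 bases (6.34% of promoters) and a TATA match at 50 bases (12.9%). The Pla2g4a window held a TATA match at 108 bases, and those of Alox5, Lta4h and Ltc4s held 0 matches. Tbxas1 was slightly higher in set B (log2 difference, set A minus set B, -0.18). The motifs did not overlap in the 3 windows shown, and a match is only a match of letters.

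Between the library sets the enzymes of prostaglandin synthesis lay on opposite sides. Ptges (ENSRNOG00000006320), which encodes the inducible microsomal synthase of prostaglandin E2, was at 0.573 and 0.620 CPM with hAEC, 0.513 and 0.843 CPM with hAMSC and 0.459 and 0.694 CPM with vehicle in set A. In set B it was at 12.1 and 14.6 CPM with hAEC, 13.3 and 15.1 CPM with hAMSC and 11.998 and 12.6 CPM with vehicle. The sets did not overlap, and the fitted log2 difference (set A minus set B) was -4.42, which is 21.4-fold higher in set B.

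Ptgs2 (ENSRNOG00000002525), the inducible cyclooxygenase, lay the same way. In set A it was at 1.5 and 3.44 CPM with hAEC, 2.33 and 2.38 CPM with hAMSC and 2.58 and 4.17 CPM with vehicle. In set B it was at 9.46 and 10.3 CPM with hAEC, 8.45 and 11.9 CPM with hAMSC and 12.8 and 13.0 CPM with vehicle. All set B libraries were above all set A libraries, with a log2 difference of -2.01 (4.04-fold higher in set B).

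Hpgds (ENSRNOG00000006583), the haematopoietic synthase of prostaglandin D2, had the largest difference of the 9 tested genes in the other direction. It was at 56.3 and 61.5 CPM with hAEC, 57.8 and 58.7 CPM with hAMSC and 57.6 and 62.3 CPM with vehicle in set A. In set B the values were 8.26 and 8.33 CPM with hAEC, 8.58 and 10.6 CPM with hAMSC and 6.79 and 9.39 CPM with vehicle. The log2 difference was 2.77 (6.83-fold higher in set A), with no overlap.

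Ptgs1 (ENSRNOG00000007415), the constitutive cyclooxygenase, was 2.08-fold higher in set A (log2 difference 1.06). It was at 339 and 354 CPM with hAEC, 303 and 328 CPM with hAMSC and 330 and 340 CPM with vehicle in set A, against 154 and 158 CPM with hAEC, 140 and 161 CPM with hAMSC and 169 and 176 CPM with vehicle in set B. The thromboxane synthase gene Tbxas1 (ENSRNOG00000007918) differed little, between 230 and 244 CPM in set A and between 254 and 276 CPM in set B (log2 difference -0.18), although the ranges did not touch. Pla2g4a (ENSRNOG00000002657), which supplies the substrate, lay between 58.7 and 70.3 CPM in set A and between 52.8 and 70.5 CPM in set B (log2 difference 0.036). In RefSeq's GRCr8 assembly Pla2g4a and Ptgs2 are neighbours on chromosome 13, with 2 annotated genes but 0 protein-coding genes between them.

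In the leukotriene branch, FLAP was the tested gene that parted the sets. Alox5ap (ENSRNOG00000000907) was at 9.49 and 10.3 CPM with hAEC, 8.19 and 8.36 CPM with hAMSC and 8.70 and 9.46 CPM with vehicle in set A. In set B it was at 1.38 and 1.67 CPM with hAEC, 1.17 and 1.26 CPM with hAMSC and 1.58 and 1.81 CPM with vehicle. The log2 difference was 2.62 (6.16-fold higher in set A).

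Its enzyme partner Alox5 (ENSRNOG00000012972) was low in both sets, with a range of 2.38 to 4.15 CPM and a median of 3.71 CPM in set A and a range of 1.69 to 3.14 CPM and a median of 2.15 CPM in set B (log2 difference 0.63), and these ranges overlapped. Lta4h (ENSRNOG00000004494), the leukotriene A4 hydrolase, lay between 298 and 335 CPM in set A and between 304 and 373 CPM in set B, also with overlap (log2 difference -0.13). For Ltc4s (ENSRNOG00000003244) a single count was recorded over all 12 libraries, in hAMSC 15 (0.0337 CPM). The other 11 libraries had 0, which allows up to 0.0860 to 0.110 CPM per library when the limit is set at 3 counts and only counting error is covered, and no comparison was made.

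Of the 9 tested genes, 6 had ranges that did not overlap between the sets, 3 higher in set A and 3 higher in set B. Over all 13539 tested genes 54.9% did not overlap (26.9% higher in set A and 28% higher in set B), so most of the transcriptome parted the sets in this sense. More than 1 log2 unit lay between the sets for 5 of the 9 (Ptgs1, Hpgds and Alox5ap higher in set A, Ptgs2 and Ptges higher in set B), while 9.71% of all tested genes were over 1 log2 unit higher in set A and 9.98% in set B. Since the sets were defined from the same libraries, these shares are given as the setting only.

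**Figure D1:**
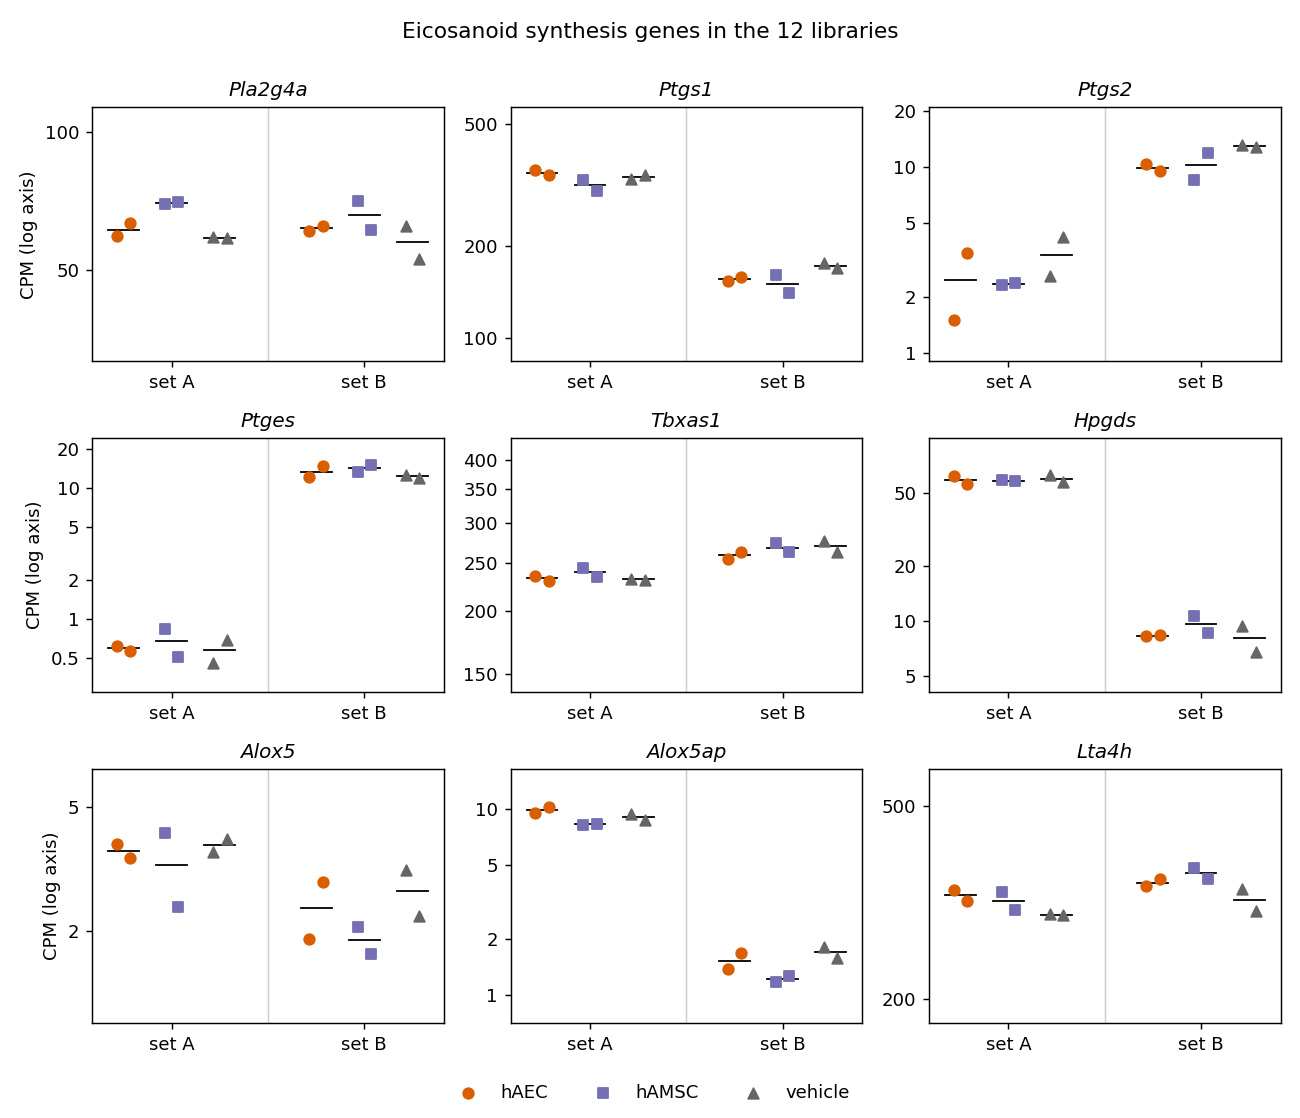
CPM (log axis, scaled per gene) of the 9 tested genes in each library, with hAEC, hAMSC and vehicle from left to right inside set A (left) and set B (right). Each point is 1 library and each bar the mean of 2. Ptges and Ptgs2 sit lower in set A, Ptgs1, Hpgds and Alox5ap sit higher in set A, and Pla2g4a, Alox5 and Lta4h overlap between the sets.

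Genes with the profile most like that of Hpgds or Ptges over the 12 libraries were sought among 9154 named genes with a mean of at least 5 CPM outside the pathway, by the root mean square difference of centred log2 CPM. The nearest to Hpgds were Abca17, an ABC transporter gene (0.078 log2 units), Heph, the copper ferroxidase hephaestin (0.080), and Ctsc, a lysosomal protease (0.12). The nearest to Ptges were Siglec10, an inhibitory sialic acid receptor (0.18), Cnn3, an actin-binding calponin (0.23), and Il1a, the cytokine interleukin 1 alpha (0.27). Siglec10 lay between 5.31 and 8.16 CPM in set A and between 129 and 152 CPM in set B. Cnn3 lay between 9.91 and 13.9 CPM in set A and between 254 and 273 CPM in set B. Il1a lay between 4.37 and 6.49 CPM in set A and between 116 and 136 CPM in set B. The log2 differences (set A minus set B) were 2.72, 2.88 and 2.92 near Hpgds and -4.38, -4.42 and -4.49 near Ptges. The likeness is therefore mainly that of the set difference, and no other link was tested.

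Other genes of the eicosanoid pathway also differed between the sets. Of 70 symbols listed, 69 were in the files and 45 were tested, with a median log2 difference (set A minus set B) of 0.44. Among the 45, 12 were over 1 log2 unit higher in set A, where 9.71% of all tested genes were, and 6 over 1 log2 unit higher in set B, where 9.98% were. The secreted phospholipase gene Pla2g2d lay between 20.9 and 25.0 CPM in set A and between 4.31 and 5.90 CPM in set B (log2 difference 2.14). Fam213b, a prostaglandin F synthase, lay between 30.7 and 34.7 CPM in set A and between 76.4 and 87.1 CPM in set B (-1.36).

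Downstream of synthesis, the prostaglandin E2 receptor gene Ptger2 lay between 34.1 and 42.9 CPM in set A and between 80.1 and 87.3 CPM in set B (log2 difference -1.08). The prostaglandin exporter gene Abcc4 lay between 41.3 and 50.1 CPM in set A and between 22.0 and 25.3 CPM in set B (0.97). Both Ptger2 and Abcc4 had ranges that did not overlap. The other tested prostaglandin E2 receptor genes, Ptger4 (0.67) and Ptger1 (0.057), did not follow Ptger2, and their ranges overlapped. In the leukotriene branch, Mgst2, a microsomal glutathione transferase that can also make leukotriene C4, was at 9.13 to 12.7 CPM in set A and 1.06 to 1.73 CPM in set B (2.94). The cysteinyl leukotriene receptor gene Cysltr1 was at 9.23 to 13.0 CPM in set A and 1.62 to 2.37 CPM in set B (2.47). Mgst2 and Cysltr1 lay the same way as Alox5ap, but Mgst2 was named for the largest set difference of its role. Cysltr1 was the only tested gene of its role. Of the other tested export and conversion genes, Mgst3 (1.31), Abcc1 (0.44) and Dpep2 (0.21) had fitted differences toward set A. Ggt5 had one toward set B (-1.72), and the ranges of Dpep2 and Ggt5 overlapped.

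**Figure D2:**
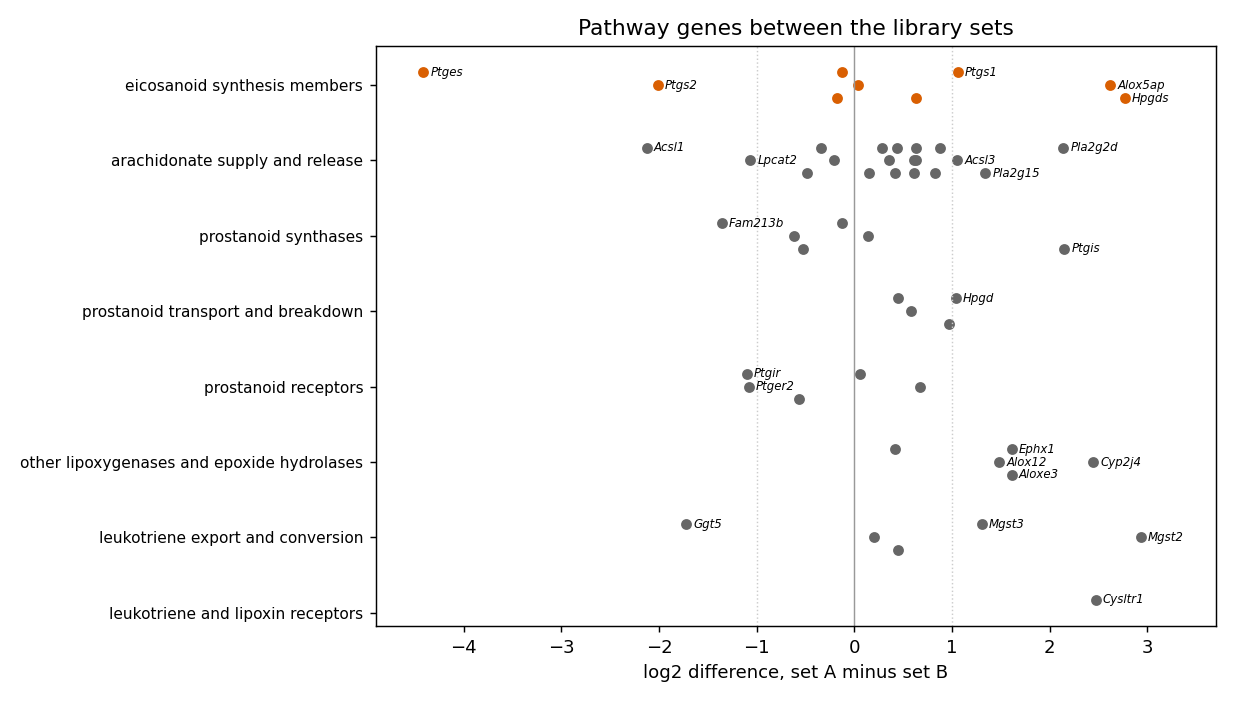
Fitted log2 difference, set A minus set B, for the 9 tested synthesis genes (orange, top row) and the 45 tested other genes of the pathway by role (grey). Each point is 1 gene, names are given beyond 1 log2 unit (dotted lines), and heights within a row only separate points. Ptges (-4.42) and Ptgs2 (-2.01) lie at the left of the top row and Alox5ap (2.62) and Hpgds (2.77) at its right.

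Markers of cell types differed between the sets as well, and most lists held markers of both directions or were carried by 1 gene. The summed level of the 13 macrophage markers was 51416 to 54400 CPM in set A and 27494 to 30273 CPM in set B. Of the 13, 7 were higher in set A without overlap, among them Gpnmb (median 25240 CPM in set A and 15232 CPM in set B) and Lyz2 (9051 CPM in set A and 1125 CPM in set B). Cd14 (179 CPM in set A and 948 CPM in set B) and Marco (40.7 CPM in set A and 108 CPM in set B) were higher in set B without overlap, and Cd68, Cd163, Clec4f and Fcgr1a overlapped.

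Of 9 mast cell markers, a cell type known for Hpgds and Ltc4s, 8 were under 1 CPM on average. The list summed to 2.41 to 4.89 CPM in set A and 33.6 to 49.5 CPM in set B, and Kit made up 97.5% of it. Kit and Cpa3 were higher in set B without overlap, and the other 7 overlapped. Cpa3 was at 0 to 0.0636 CPM in set A and 0.158 to 0.584 CPM in set B. The mast cell genes Tpsab1, Cma1 and Ms4a2 were at 0 in every set A library and reached at most 0.0615, 0.0631 and 0.123 CPM in set B. Of 9 platelet markers, a cell type known for Ptgs1 and Tbxas1, 7 were under 1 CPM, and the list summed to 637 to 684 CPM in set A and 147 to 176 CPM in set B. Pf4 made up 95.8% of it. Treml1 was also higher in set A without overlap, at 1.03 to 1.72 CPM in set A and 0.410 to 0.984 CPM in set B. Itga2b went the other way without overlap, at 4.17 to 5.45 CPM in set A and 24.0 to 27.6 CPM in set B, and 6 overlapped.

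Neutrophil markers (9, with 6 under 1 CPM) summed to 35.9 to 47.6 CPM in set A and 3.44 to 4.95 CPM in set B. Mmp8 (median 29.8 CPM in set A and 0.405 CPM in set B) and Csf3r (12.2 CPM in set A and 0.715 CPM in set B) carried this sum, and Camp was higher in set B without overlap (0.614 CPM in set A and 2.75 CPM in set B). The 11 stellate and myofibroblast markers summed to 62.2 to 71.7 CPM in set A and 73.6 to 116 CPM in set B, with 2 higher in each set without overlap and 7 that overlapped. Reln made up 49.8% of the mean sum, so the sum does not show the direction of the other markers. Reln (median 9.85 CPM in set A and 66.4 CPM in set B) and Dcn (1.06 CPM in set A and 3.28 CPM in set B) were higher in set B, and Timp1 (40.3 CPM in set A and 9.21 CPM in set B) and Tagln (5.78 CPM in set A and 3.10 CPM in set B) in set A.

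Endothelial markers summed to 207 to 344 CPM in set A and 460 to 573 CPM in set B, with 4 of 9 higher in set B without overlap and 5 that overlapped. Eosinophil and basophil markers summed to 45.4 to 60.1 CPM in set A and 129 to 153 CPM in set B, of which Siglec5 made up 99.4%, and 2 of these 7 markers were at 0 in all libraries. Hepatocyte markers summed to 672 to 819 CPM in set A and 519 to 651 CPM in set B, of which Tf made up 99.2%, and the other 7 overlapped, with Alb at a median of 2.24 CPM in set A and 5.68 CPM in set B. Lymphocyte markers summed to 7.53 to 8.98 CPM in set A and 9.03 to 13.7 CPM in set B, and of the 7 in the files 1 (Nkg7) was higher in set B without overlap. Single markers were named after their values were seen. The part of these cell types in the set differences was not tested. Between the treatment groups the summed macrophage markers ran from 28815 to 52244 CPM with hAEC, from 29251 to 52550 CPM with hAMSC and from 27494 to 54400 CPM with vehicle.

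Against vehicle, no gene of prostaglandin or leukotriene synthesis passed the test with either kind of amniotic cell. In the model of set and group, the quasi-likelihood F test of edgeR (two-sided, threshold 0.05 after Benjamini-Hochberg adjustment over 13539 genes) called 0 of the 9 genes for hAEC against vehicle, 0 for hAMSC against vehicle and 0 for hAEC against hAMSC. Over all genes it called 0% for hAEC against vehicle, 0.236% (32 genes, 0.155% higher and 0.0812% lower) for hAMSC against vehicle and 0.0222% (3 genes) for hAEC against hAMSC. At an unadjusted p under 0.05 stood 1, 4 and 2 of the 9 genes in the same order, against 5.61%, 9.68% and 6.37% of all genes. DESeq2 called 0, 1 and 0 of the 9, against 0.0148%, 1.53% and 0.603% of the genes it tested, and limma voom 0 in each comparison. Without the set in the model edgeR called 0 of the 9 and 0% of all genes in each comparison. The median log2 difference of the 9 genes was 0.0012, 0.018 and -0.013, and that of all tested genes -0.0032, -0.0027 and -0.000054.

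The phospholipase gene Pla2g4a came nearest to the threshold, with hAMSC. It was at 69.5 and 70.3 CPM with hAMSC against 58.7 and 58.9 CPM with vehicle in set A, and at 61.2 and 70.5 CPM with hAMSC against 52.8 and 62.4 CPM with vehicle in set B. The groups did not overlap in set A and overlapped in set B, where hAMSC 8 was below vehicle 17. Over the 4 libraries of each group it averaged 67.9 ± 4.48 CPM with hAMSC and 58.2 ± 3.95 CPM with vehicle (SD, n = 4 each). The log2 difference was 0.22 (SE 0.055, 95% interval 0.11 to 0.34), 0.25 within set A and 0.20 within set B.

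It did not pass in edgeR (adjusted p = 0.132) and passed in DESeq2 with the same terms (adjusted p = 0.0325). Over its 24 alternatives the adjusted p ran from 0.0325 to 1, and the log2 difference from 0.17 to 0.27. With hAEC, Pla2g4a was at 59.4 and 63.2 CPM in set A and 60.8 and 62.4 CPM in set B (log2 difference to vehicle 0.079, SE 0.055, edgeR adjusted p = 0.920).

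Lta4h was above its vehicle mean with both kinds of human cell, without passing. In set A it was at 319 and 335 CPM with hAEC, 306 and 332 CPM with hAMSC and 298 and 299.7 CPM with vehicle. In set B it was at 343 and 353 CPM with hAEC, 354 and 373 CPM with hAMSC and 304 and 338 CPM with vehicle. Within each set the 4 co-culture libraries were above the 2 vehicle libraries. The log2 difference to vehicle was 0.12 (SE 0.042) with hAEC and 0.14 (SE 0.042) with hAMSC, with edgeR adjusted p-values of 0.860 and 0.261; these comparisons share their vehicle libraries.

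Ptgs2 had the largest fitted differences to vehicle of the 9 genes and also the widest intervals. Its log2 difference was -0.41 with hAEC (SE 0.21, 95% interval -0.87 to 0.043) and -0.42 with hAMSC (SE 0.21, 95% interval -0.87 to 0.038), with edgeR adjusted p-values of 0.907 and 0.550. In set B both vehicle libraries were above the 4 co-culture libraries, and in set A hAEC 12 (3.44 CPM) was above vehicle 19 (2.58 CPM). Ptges, which shares the set pattern of Ptgs2, had differences of the other sign, 0.10 (SE 0.13) with hAEC and 0.22 (SE 0.13) with hAMSC, and edgeR adjusted p-values of 0.955 and 0.635.

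Among the remaining genes, Ptgs1 had a log2 difference of -0.14 for hAMSC against vehicle (SE 0.049, edgeR adjusted p = 0.347). Alox5ap had a difference of -0.27 with hAMSC (SE 0.12, edgeR adjusted p = 0.473), and in each set both hAMSC libraries were below both vehicle libraries. Alox5 had -0.35 with hAMSC (SE 0.19, edgeR adjusted p = 0.585). Tbxas1 had the narrowest intervals: its difference was -0.027 with hAEC (95% interval -0.099 to 0.044) and 0.018 with hAMSC (95% interval -0.054 to 0.089). Hpgds differed from vehicle by 0.0012 with hAEC (95% interval -0.20 to 0.20) and by 0.085 with hAMSC (95% interval -0.11 to 0.28). Tbxas1 and Hpgds had edgeR adjusted p-values of 0.955 and 1 with hAEC and of 0.908 and 0.815 with hAMSC.

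Set directly against each other, the co-cultures differed most for Alox5ap, at 0.28 log2 units for hAEC minus hAMSC (SE 0.12, 95% interval 0.040 to 0.53, edgeR adjusted p = 0.671). Every hAEC library was above every hAMSC library of its set. For Pla2g4a the difference was -0.14 (SE 0.054, edgeR adjusted p = 0.616), and for Ptgs2 it was 0.0057 (95% interval -0.45 to 0.46, edgeR adjusted p = 0.999). The remaining 6 genes had edgeR adjusted p-values from 0.849 to 0.992.

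**Figure D3:**
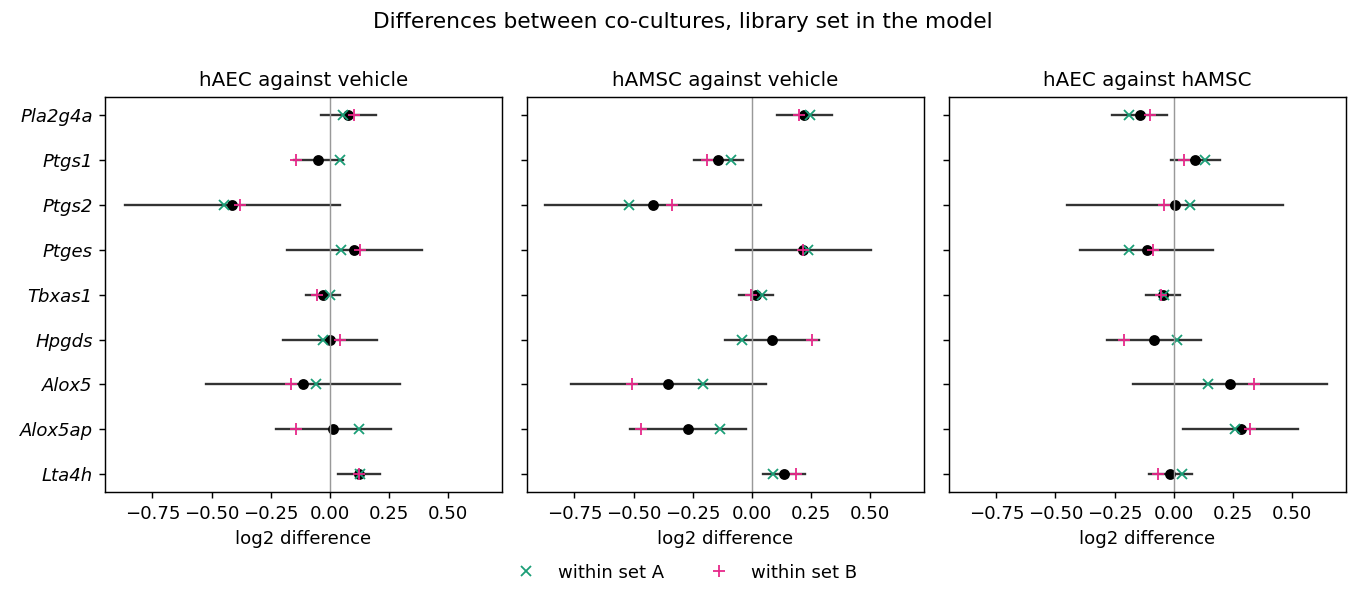
Log2 differences of the 9 tested genes for hAEC against vehicle (left), hAMSC against vehicle (middle) and hAEC against hAMSC (right). Black points and lines are the estimates and 95% intervals with the library set in the model, and crosses and plus signs the differences within set A and set B. Pla2g4a with hAMSC lies at 0.22 with an interval of 0.11 to 0.34, and the lines for Ptgs2 are among the longest.

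Whether a response to the human cells differed between the sets was tested by the product of set and group. The quasi-likelihood test in edgeR called 0 of the 9 genes for hAEC and 0 for hAMSC, against 0% and 0.199% of all genes. DESeq2 and limma voom also called 0 of the 9. Among the edgeR tests of the 9 genes, Ptgs1 with hAEC had the smallest unadjusted p (0.0436) and did not pass (edgeR adjusted p = 0.912). Its difference to vehicle was 0.20 log2 units larger in set A than in set B (SE 0.089). For Hpgds with hAMSC the same contrast, set A minus set B, was -0.29 (SE 0.18, edgeR adjusted p = 0.622).

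Among the 45 other pathway genes tested, 1 passed for hAMSC against vehicle, where 0.236% of all tested genes did. This was Fads1, a desaturase on the route that makes arachidonic acid, which was higher with hAMSC than with vehicle. It was at 33.7 and 35.8 CPM with hAMSC against 24.4 and 26.3 CPM with vehicle in set A, and at 16.96 and 18.3 CPM with hAMSC against 14.0 and 15.1 CPM with vehicle in set B, without overlap in either. The log2 difference was 0.37 (SE 0.068, edgeR adjusted p = 0.0314). The call was lost under 13 of 24 alternatives and kept by DESeq2 and limma voom. Over all 24 the log2 difference stayed between 0.29 and 0.45 and the adjusted p ran from 0.000814 to 1. With hAEC, Fads1 was at 28.6 and 31.3 CPM in set A and at 18.2 and 18.98 CPM in set B (log2 difference to vehicle 0.30, SE 0.068, edgeR adjusted p = 0.860). These hAEC libraries also lay above the vehicle libraries of their set without overlap. For hAEC against hAMSC the log2 difference of Fads1 was -0.074 (SE 0.068, edgeR adjusted p = 0.992). For hAEC against vehicle and for hAEC against hAMSC, 0 of the 45 passed in either direction, against 0% and 0.0222% of all tested genes. The medians of the 45 were -0.022 for hAEC against vehicle, -0.048 for hAMSC against vehicle and 0.013 for hAEC against hAMSC. Receptors for leukotriene B4 (Ltb4r and Ltb4r2) and for prostaglandin D2 (Ptgdr and Ptgdr2) had too few counts to be tested.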

How the data were processed

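Kits for RNA (RNAqueous-Micro) and for libraries (TruSeq stranded mRNA) are those named per the labels' protocols. The authors deposited expected counts per gene, and 90.1% of the deposited values were whole numbers. The tools named, per the submitters' processing notes, were STAR, RSEM, limma, Trim Galore and FastQC, with Rnor_6.0 and rn6 as builds and no versions or roles. RSEM shares reads between similar genes, which the tests do not carry as error. No transcript lengths were used.

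Expected counts were rounded to whole numbers. In R 4.3.3, edgeR 4.0.16 kept 13539 of 32623 genes (filterByExpr), scaled by TMM and fitted a robust quasi-likelihood model of library set and group over all 12 libraries. Standard errors were taken from the log2 difference and the F statistic. Benjamini-Hochberg adjustment ran over all tested genes. The biological coefficient of variation was 9.91% with the set and 38.9% without it. Alternatives used DESeq2 1.42.0, limma 3.58.1, other scalings and filters, subsets of libraries and each library left out. The script was tested on simulated data.

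The genes, lists, motifs and the set term were chosen with earlier results of these data known. All 10 genes are named, with other pathway genes that passed or, per role, the one of largest set difference above 5 CPM, and the 3 nearest profiles to the 2 most divergent genes. Since separate animals or cultures are not stated, p-values reflect spread among libraries that may be technical.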

Additional observations from a re-analysis of the deposited data

Results flagged for a closer look

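Of 28 combinations of a synthesis gene and a group with values that vary, 3 had a library far from the other 3 of its group. The usual chance rate of about 1 in 20 cannot be set beside this count: each group holds 2 libraries of each set, so a gene that parts the sets can hardly stand out in this way, and for Ltc4s a single count against 0 gives the largest possible ratio by construction. Pla2g4a was at 61.2 CPM in hAMSC 8, below the other 3 hAMSC libraries. Lta4h was at 338 CPM in vehicle 17, above the other 3 vehicle libraries. Ltc4s was at 0.0337 CPM in hAMSC 15, which is 1 count, with 0 in the other 3 hAMSC libraries. Both hAMSC 8 and vehicle 17 belong to set B. Without hAMSC 8 the log2 difference of Pla2g4a between hAMSC and vehicle was 0.27 (0.22 with it), and without vehicle 17 that of Lta4h was 0.15 for hAEC and 0.16 for hAMSC (0.12 and 0.14 with it).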

How the results depend on the processing

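The count of synthesis genes called was 0 under every alternative except DESeq2, which called 1 (Pla2g4a) for hAMSC against vehicle; leaving out each library gave 0 to 0 in all 3 comparisons and in both interaction tests. The count over all genes moved more. For hAEC against vehicle it was 2 by DESeq2, 1 in set B alone, 6 in set A alone and 10 on the 2 groups alone, and 0 whichever library was left out. For hAMSC against vehicle (32) it was 0 without the set, 52 without a filter, 155 by DESeq2, 12 without robust estimation, 86 in set B alone, 94 in set A alone and 9 on the 2 groups alone. Leaving out 1 library gave 15 (hAEC 3), 13 (hAEC 4), 12 (hAEC 11), 56 (hAMSC 7), 13 (hAMSC 8), 153 (hAMSC 15), 9 (hAMSC 16), 21 (vehicle 17), 8 (vehicle 18), 12 (vehicle 19) or 11 (vehicle 20). For hAEC against hAMSC (3) it was 0 without the set, 26 without a filter, 80 by DESeq2, 0 without robust estimation, 1 in set B alone and 58 in set A alone. It was 0 without hAEC 3, hAMSC 8 or hAMSC 15, 1 without hAEC 4, hAEC 12 or hAMSC 16, 5 without vehicle 19 and 50 without hAMSC 7. The call of Fads1 with hAMSC, whose alternatives were added after seeing the data, was lost without the set, without robust estimation, in set B alone, on the 2 groups alone and without any 1 of hAEC 3, 4 and 11, hAMSC 8 and 16 and the 4 vehicle libraries. The cause was not tested.

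Of 645 log2 differences under alternatives, 611 kept their direction and their side of the threshold, 33 changed sign and 1 (Pla2g4a by DESeq2) newly passed; none of those that changed sign had passed. For hAEC against vehicle, in set A alone Ptgs1 was at 0.046, Tbxas1 at 0.0034 and Hpgds at -0.027, and in set B alone Alox5ap at -0.14. Hpgds was also at -0.017 without the set, -0.0055 by upper quartile scaling and -0.0086 by limma voom. For hAMSC against vehicle, Tbxas1 was at -0.0010 in set B alone, and Hpgds at -0.0043 without the set and -0.042 in set A alone. For hAEC against hAMSC, Ptgs2 was at -0.020 without the set, -0.021 by limma voom and -0.041 in set B alone, and in set A alone Hpgds was at 0.015 and Lta4h at 0.037. Leaving out each library gave ranges that crossed 0 for Ptges (-0.0050 to 0.18), Hpgds (-0.085 to 0.052), Alox5 (-0.24 to 0.013) and Alox5ap (-0.052 to 0.082) with hAEC, for Hpgds with hAMSC (-0.0093 to 0.13), and for Ptgs2 (-0.18 to 0.16), Hpgds (-0.12 to 0.0025) and Lta4h (-0.046 to 0.016) between the co-cultures. Alox5 gave no value with a mean of at least 5 CPM. No paired analysis was possible because no sample number is shared between groups. Alox5 and Ptgs2 had the largest standard errors of the 9 tested genes against vehicle (0.19 and 0.21 with hAEC). For these 2 genes only large differences could be seen, and what widened the errors was not tested. For Ltc4s no comparison was made.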

Other observations

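Of 9 other lipoxygenase, epoxygenase and epoxide hydrolase genes of the pathway list, 5 had enough counts to be tested. Of these 5, 4 were over 1 log2 unit higher in set A, where 9.71% of all tested genes were, and the median log2 difference (set A minus set B) was 1.61. The 4 untested genes were at most 0.217 CPM in any library, and of these Alox12b was at 0 in every set A library and at 0.0308 to 0.217 CPM in set B. Ephx1, the microsomal epoxide hydrolase, lay between 19.6 and 24.5 CPM in set A and between 5.93 and 8.45 CPM in set B. Alox12, the platelet-type 12-lipoxygenase, lay between 4.55 and 6.17 CPM in set A and between 1.01 and 2.30 CPM in set B. Acsl1, which activates long-chain fatty acids, went the other way, at 50.3 to 54.0 CPM in set A and 212 to 254 CPM in set B (log2 difference -2.12). Alox12, Alox12b and Acsl1 were named after their values were seen.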
